A study of Mus musculus with 36 samples.

Results

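The genes of the ciliary axoneme and of intraflagellar transport were taken from the RNA and H2A.Z data of the mouse hippocampus by their symbols. Members are all genes in the RNA count files whose symbol starts with Dnah, Dnaic, Dnali, Rsph, Spag, Tekt, Ift or Bbs followed by a digit, which gave 58 of 24060 genes. Of these, 33 carry the motile prefixes (Dnah, Rsph, Spag, Tekt), 22 the general prefixes (Ift, Bbs), and 3 are dynein intermediate or light chains (Dnaic1, Dnaic2, Dnali1). Their promoter peaks are those within 1 kb of a start site in the authors' H2A.Z table, 35 of 12204 promoter peaks among 20213 peaks in all. The samples were hippocampi of C57BL/6J mice, with no transgene or other allele named in the labels. The old conditioned group was 15.5 months old and was fear conditioned, receiving 3 shocks (0.5 mA, 2 s each) within 5 min. The old naive group was of the same age and was not conditioned. The young conditioned group was 2.5 months old and had the same session, and the young naive group was of that age and was not conditioned. Brains were frozen 30 min after training. Each group had 3 RNA libraries and 3 libraries of chromatin precipitated with H2A.Z, a variant of histone H2A that sits beside many start sites. The labels do not say that libraries came from separate mice, so the p-values cover only the spread among these libraries, which may be technical.

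A cilium is built on an axoneme, a ring of doublet microtubules. In motile cilia, such as those of the ependymal cells that line the brain ventricles, outer and inner dynein arms bend the doublets, radial spokes and a central pair apparatus control the beat, and tektins run inside the doublet walls. Neurons and astrocytes carry a single non-motile primary cilium instead. Both kinds are assembled by intraflagellar transport, in which IFT-B trains move cargo to the tip and IFT-A trains return it, and the BBSome carries membrane proteins out of and within the cilium. RFX transcription factors bind a sequence called the X-box in the promoters of many cilium genes.

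The promoters of 5 members are shown because the results below turn on them or on the X-box. Each runs from 250 bases before the start site to 30 bases after it, 5′ to 3′ on the gene's strand, from RefSeq on GRCm38.p6, and capitals mark the X-box half-site GTTGCC or its reverse complement GGCAAC. Rsph9 (chr17:46144171-46144450, minus strand) had the deepest fall of H2A.Z among the members in conditioned young mice, and Ift27 (chr15:78174052-78174331, minus strand) the next. Ift88 (chr14:57423821-57424100, plus strand) had one of the 2 falls that passed in old mice. Dnah2 (chr11:69549079-69549358, minus strand) was the only member whose RNA passed in the main edgeR fit of all 12 libraries, after a filter on low counts. It had no H2A.Z promoter peak. Bbs7 (chr3:36613360-36613639, minus strand) was the only one of the 49 members with a matched promoter to hold the full X-box palindrome GTTNCCNNGGNAAC, which its capitals open.
Rsph9: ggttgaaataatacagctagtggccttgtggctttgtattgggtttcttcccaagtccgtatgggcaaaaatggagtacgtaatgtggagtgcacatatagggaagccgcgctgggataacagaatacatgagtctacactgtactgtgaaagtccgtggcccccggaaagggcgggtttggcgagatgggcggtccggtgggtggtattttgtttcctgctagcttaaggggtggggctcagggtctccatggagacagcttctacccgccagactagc
Ift27: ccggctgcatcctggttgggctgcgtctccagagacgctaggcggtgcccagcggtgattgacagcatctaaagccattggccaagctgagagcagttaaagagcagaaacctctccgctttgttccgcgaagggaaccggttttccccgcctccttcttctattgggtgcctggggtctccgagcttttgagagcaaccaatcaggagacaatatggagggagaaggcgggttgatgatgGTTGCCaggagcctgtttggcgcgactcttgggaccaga
Ift88: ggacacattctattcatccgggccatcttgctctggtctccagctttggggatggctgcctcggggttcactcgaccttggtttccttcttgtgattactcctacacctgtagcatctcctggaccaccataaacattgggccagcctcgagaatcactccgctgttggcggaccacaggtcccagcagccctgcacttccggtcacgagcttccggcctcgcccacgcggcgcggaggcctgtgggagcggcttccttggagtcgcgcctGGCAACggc
Dnah2: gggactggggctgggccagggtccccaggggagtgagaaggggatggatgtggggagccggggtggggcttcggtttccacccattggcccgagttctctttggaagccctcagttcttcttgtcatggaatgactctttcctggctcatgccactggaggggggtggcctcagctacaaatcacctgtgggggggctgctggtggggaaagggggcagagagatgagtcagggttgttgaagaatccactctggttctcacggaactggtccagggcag
Bbs7: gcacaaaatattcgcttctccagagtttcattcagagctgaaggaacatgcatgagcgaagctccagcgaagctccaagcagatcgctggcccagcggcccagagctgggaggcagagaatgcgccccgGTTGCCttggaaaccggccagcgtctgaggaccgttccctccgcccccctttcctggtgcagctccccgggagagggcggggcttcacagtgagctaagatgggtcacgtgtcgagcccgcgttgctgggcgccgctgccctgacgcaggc

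The X-box half-site stood in a larger share of the cilium promoters than of promoters at large. RefSeq promoters, from 250 bases before to 50 after the start, were matched for 49 of the 58 members. The entry for Spag6 was left out, because the peak the authors' table calls Spag6 lies at the start of Spag6l on chromosome 16, while RefSeq places Spag6 on chromosome 2. GTTGCC on either strand was found in 18 of 49 members (36.7%), in 9 of 27 motile and in 8 of 19 general members. The same letters stood in 14.0% of 16780 promoters of genes in the RNA files. The full palindrome stood in 1 member (2.04%) and in 0.53% of those promoters. A match is a description of the letters in this window and not of a bound site. The ratio of observed to expected CpG, which is high in CpG islands, had a median of 0.571 in motile and 0.785 in general members, against 0.572 over those 16780 promoters. Dnah2 had 0.194 and Rsph9 0.594 over the same window.

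RNA libraries held 9410843 to 13350561 counts. A library held 12516 to 17377 counts of member genes, from 53 to 56 of the 58 members. The filter on low counts left 14405 genes, and 51 members passed it, all 22 general ones, all 3 dynein chains and 26 motile ones. Dnah17, Rsph6a, Tekt2, Tekt3 and Tekt4 stood at no more than 10 counts in any library and did not pass. Spag11a and Spag11b, defensin-like genes of the epididymis that share only the prefix, had 0 counts in all libraries. Levels are given as CPM, counts scaled to a common library size with TMM factors, and are compared between libraries for the same gene only. In chi-square tests of replicate pairs, the pairs with young naive library 81 (11.03 and 18.26 per degree of freedom) and with old conditioned library 61 (13.36 and 17.24) lay above the other 8 pairs of the same groups, which lay between 4.81 and 9.49. Neuronal, astrocytic, oligodendrocytic and microglial markers were present in every library, with mean log2 CPM ranges of 8.12 to 8.40, 7.21 to 7.47, 7.73 to 8.52 and 4.48 to 4.98. Library 81 held the highest oligodendrocytic (8.52) and the lowest neuronal score (8.12), and library 61 had 7.82 and 8.37 for these scores.

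Motile cilium genes differed between libraries much more than general cilium genes. The mean log2 CPM of the 26 measured motile members averaged 2.36 ± 0.09 in old conditioned, 2.63 ± 0.13 in old naive, 2.62 ± 0.20 in young conditioned and 2.91 ± 0.27 in young naive hippocampi (SD, n = 3 each). Over the 12 libraries it ran from 2.27 in old conditioned 61 to 3.12 in young naive 81. For the 22 general members the group means were 4.40 ± 0.05, 4.42 ± 0.03, 4.49 ± 0.04 and 4.46 ± 0.06 in the same order of groups, with a range over libraries of 0.17 against 0.85 for the motile ones. The SD between libraries of a group had a median of 0.29 on the log2 scale for motile members, 0.12 for general members and 0.14 for all tested genes. These sets stood at unlike levels, with a median log2 CPM of 2.57, 4.63 and 4.54 in the same order. How much of the wider motile spread goes with low counts was not tested. Library 81 held the highest level of 16 of the 26 motile members and library 61 the lowest of 11, so a single library at each end sets much of the range.

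The ependymal marker score was lowest and highest in the same libraries as the motile score, and the choroid plexus score shared only the highest. The score of 16 ependymal markers ran from 0.49 in old conditioned 61 to 1.98 in young naive 81. None of them is a member, but at least Foxj1, Ak7 and Enkur are themselves axonemal or motile ciliogenesis genes. The score is therefore not separate from motile cilium genes, here or where it is used as a covariate. By group it was 0.71 ± 0.23 in old conditioned, 1.28 ± 0.19 in old naive, 1.18 ± 0.57 in young conditioned and 1.46 ± 0.55 in young naive libraries. None of the 16 was at 0 in all libraries of a group. Their summed level was 39.1 to 45.1 CPM in old conditioned, 50.6 to 62.4 in old naive, 39.5 to 71.2 in young conditioned and 43.8 to 89.6 in young naive libraries. Foxj1, the transcription factor that drives motile cilium formation and one of these markers, was between 6.28 and 7.07 CPM in old conditioned libraries. It had 7.97 to 10.3 CPM in old naive and 7.84 to 17.9 CPM in young naive libraries. In young conditioned libraries it had 6.25, 12.7 and 6.17 CPM, so its lowest value was in young conditioned 77. The 16 choroid plexus markers, of the ventricular tissue that secretes cerebrospinal fluid, summed to 85.7 to 186 CPM in old conditioned, 198 to 2048 in old naive, 79.8 to 2445 in young conditioned and 233 to 3397 in young naive libraries. Their score was lowest in young conditioned 77 (0.55) and old conditioned 63 (0.56), against 0.81 in old conditioned 61, and highest in young naive 81 (5.09). In bulk tissue, fewer cells of a type and less RNA per cell cannot be told apart.

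**Figure D1:**
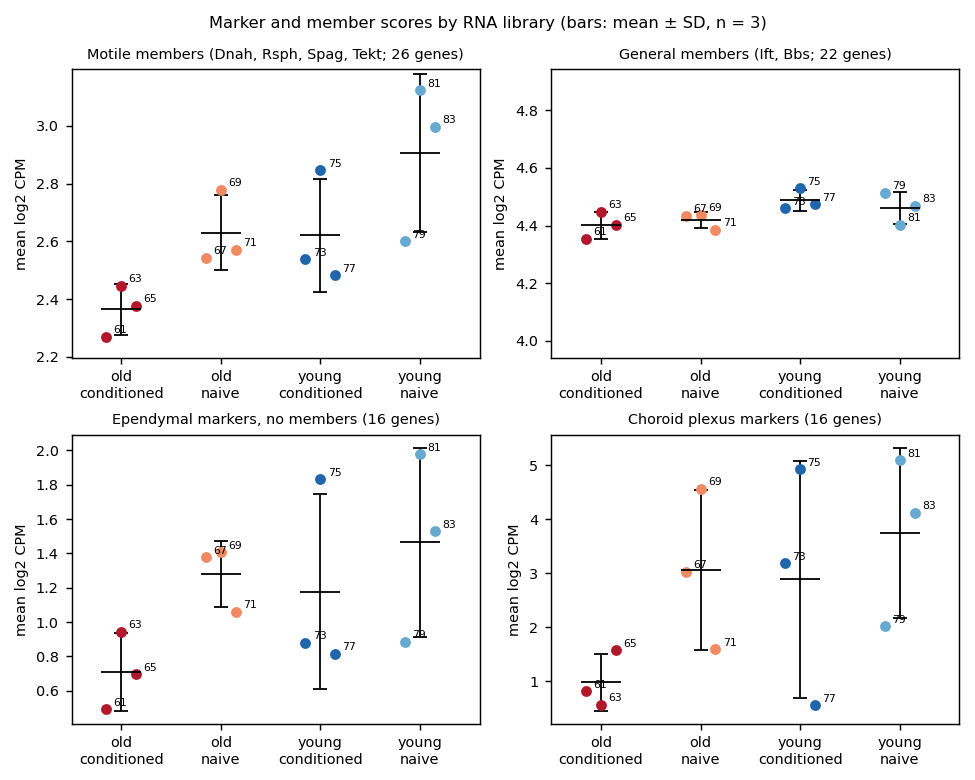
Mean log2 CPM of 4 gene groups in each of the 12 RNA libraries, by group, with the library number beside each point and bars for the group mean ± SD (n = 3). The motile score runs from 2.27 to 3.12 and the general score, drawn over an axis of the same length, from 4.35 to 4.53, while the ependymal and choroid plexus panels have axes of their own.

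**Figure D2:**
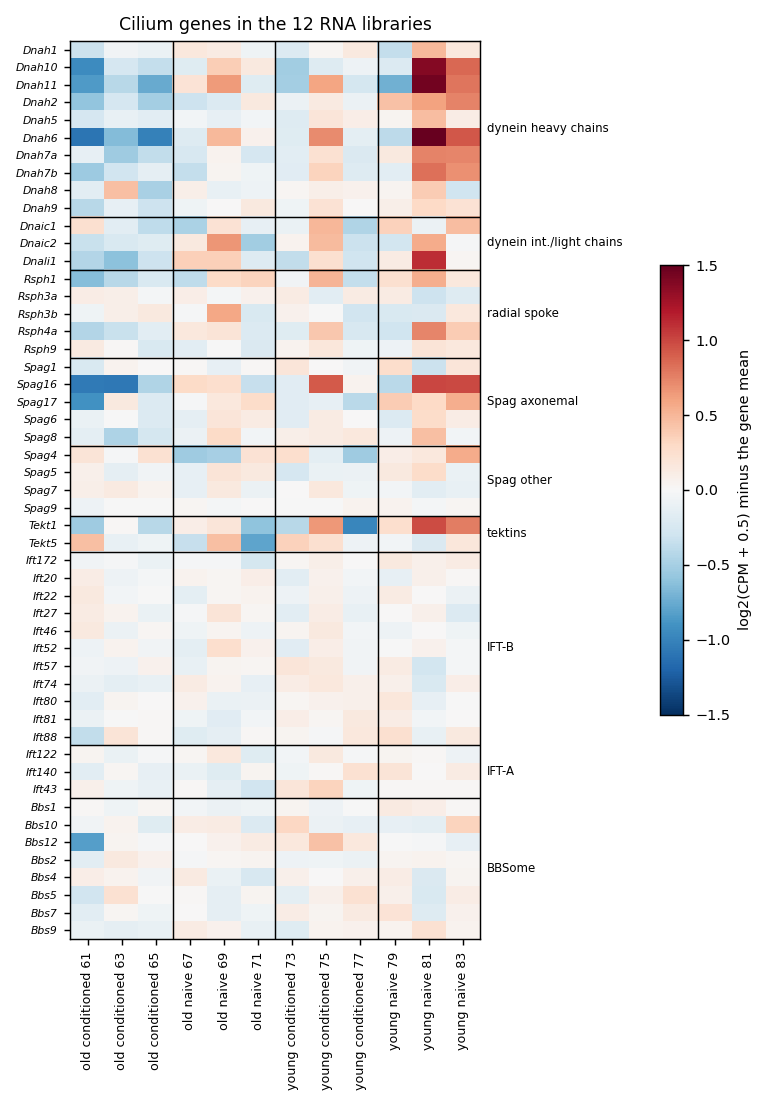
Level of the 51 tested members (rows, by role) in the 12 RNA libraries (columns, by group), as log2(CPM + 0.5) minus the mean of the gene. The rows of the dynein heavy chains and of Rsph1, Rsph4a, Spag16 and Tekt1 are lower in old conditioned 61 than in young naive 81. Those of Dnaic1, Rsph3a, Rsph3b, Spag1, Spag4, Spag7 and Tekt5 are higher there, and the Ift and Bbs rows are close to 0 in nearly all libraries.

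Training was compared as conditioned against naive hippocampi, averaged over both ages with 6 libraries in each arm. No member passed in edgeR's quasi-likelihood test with Benjamini-Hochberg adjustment over all genes, where 0.0764% of all genes did. DESeq2 called 0 as well. An unadjusted p under 0.05 was found for 12 members on the lower side and 0 on the higher. Of the 12, 11 were among the 26 motile members and 1 was Dnali1. Over all tested genes 4.17% were lower at that threshold. The motile members had a median log2 change of -0.22 with 20 of 26 below 0, the general members 0.01 with 10 of 22 below 0, and all genes 0.00 with 49.8% below 0. With the ependymal score as a covariate the motile median was -0.08, and without libraries 81 and 61 it was -0.18. The part of ependymal, choroid plexus and oligodendrocytic levels in these differences was not tested.

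The dynein heavy chains, the motors of the arms, held most of these low values, with a median log2 change of -0.44, 9 of 10 below 0 and 7 with an unadjusted p under 0.05. Dnah2, a heavy chain of a double-headed inner arm, had 4.77, 6.20 and 5.08 CPM in old conditioned, 5.91, 6.41 and 8.33 in old naive, 7.01, 8.24 and 6.98 in young conditioned and 10.3, 11.6 and 12.8 in young naive libraries. All 3 young conditioned libraries lay below all 3 young naive ones, and the old groups overlapped. Its training log2 change over both ages was -0.50 (SE 0.12, edgeR adjusted p = 0.284). Dnah10, the other heavy chain of that inner arm, had 1.33, 2.45 and 2.24 CPM in old conditioned against 2.60, 4.03 and 3.40 in old naive libraries. It had 1.96, 2.58 and 2.83 CPM in young conditioned against 2.54, 8.62 and 5.87 in young naive libraries. The old groups did not overlap, and young naive 79 lay among the conditioned libraries. The log2 change of Dnah10 was -0.99 (SE 0.26, edgeR adjusted p = 0.478), which became a call without young naive 79, with the smallest adjusted p among the members at 0.0161. The share of all genes called for training in that fit is not given here.

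Dnah6, an inner arm heavy chain, had 3.80, 5.33 and 4.05 CPM in old conditioned against 7.49, 12.4 and 9.05 in old naive libraries. It had 7.61, 14.5 and 7.79 CPM in young conditioned against 6.46, 25.3 and 16.9 in young naive libraries. Conditioned lay below naive throughout in old mice and overlapped it in young mice (log2 -0.93 over both ages, SE 0.27, edgeR adjusted p = 0.576). In the same fit without young naive 79 it too was called, and Dnah6 and Dnah10 are named here after their values were seen. Dnah9, an outer arm heavy chain, had a median of 50.8 CPM in the 6 conditioned libraries (40.4 to 62.8) against 58.8 in the 6 naive ones (51.6 to 66.4; log2 -0.23, SE 0.07, edgeR adjusted p = 0.618). Dnah11, an outer arm heavy chain, had a median of 3.37 CPM (2.47 to 7.57) in conditioned against 6.73 (2.75 to 14.1) in naive libraries, and both arms overlapped widely. Dnah8, known from sperm, had a median of 1.60 CPM in conditioned and 1.51 in naive libraries. Dnah7a and Dnah7b are near-identical copies between which reads could be split, with log2 values of -0.52 and -0.37.

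The other motile groups were mixed. Among the radial spoke genes, the spoke head genes Rsph1 and Rsph4a had log2 values of -0.46 (SE 0.21) and -0.37 (SE 0.17), while the spoke head gene Rsph9 had 0.04 and the stalk gene Rsph3a 0.09. Rsph3a and Rsph3b are close paralogs between which reads could be split. Spag16 and Spag17, both of the central apparatus, had -0.85 (SE 0.33) and -0.65 (SE 0.22). Spag17 had 0.707, 2.01 and 1.46 CPM in old conditioned against 1.73, 2.02 and 2.24 in old naive libraries. In young mice it had 1.51, 1.58 and 1.21 CPM in conditioned against 2.44, 2.29 and 2.81 in naive libraries, with no overlap. Spag6, also of the central apparatus, had -0.13, though its counts may belong to RefSeq Spag6 or to Spag6l, and Spag1, a factor that preassembles dynein arms in the cytoplasm, -0.02. Of the tektins, Tekt1 had a log2 value of -0.61 (SE 0.30) and Tekt5 one of 0.26 (SE 0.20). Dnali1, an inner arm light chain, had a median of 1.17 CPM (0.873 to 2.00) in conditioned and 2.00 (1.34 to 4.04) in naive libraries (log2 -0.84, SE 0.27). The outer arm intermediate chains Dnaic1 and Dnaic2 had -0.10 and -0.28. No spoke, Spag, tektin or dynein intermediate or light chain gene passed, with edgeR adjusted p values of 0.711 and above.

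Spag genes known for work outside the axoneme were mixed as well. Spag4, a SUN domain gene, had a log2 range of 1.35 over the 12 libraries, near the median of 1.20 over motile members, and training log2 values of 0.53 (SE 0.38) in old and -0.51 (SE 0.36) in young mice. Spag9, which codes for a scaffold of JNK signalling and a motor adaptor, had 437 to 478 CPM in conditioned and 452 to 479 CPM in naive libraries. Its log2 change was -0.02 (SE 0.04). Spag7 had a median of 23.4 CPM in conditioned and 20.7 in naive libraries (log2 0.13, SE 0.07, edgeR adjusted p = 0.737), and Spag5, the mitotic spindle gene astrin, 4.43 and 5.29.

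Averaged over both ages, the conditioned and naive libraries of every general cilium gene overlapped. The 11 IFT-B genes had a median log2 change of 0.01, the 3 IFT-A genes 0.00 and the 8 BBS genes -0.00, and 0 of the 22 had an unadjusted p under 0.05. Single values lay between -0.14 for Bbs9, a BBSome subunit, and 0.13 for the IFT-A gene Ift43, and SEs between 0.05 and 0.14. Ift88, an IFT-B core gene needed for cilia, differed by 0.02 (SE 0.09), Ift172 by -0.02 (SE 0.05) and Bbs1, a BBSome subunit, by -0.02 (SE 0.05). In young mice alone, the libraries did not overlap for Bbs12, higher in conditioned mice (log2 0.33, SE 0.20), and Bbs2, lower (log2 -0.12, SE 0.10), and neither passed. Of all 14405 tested genes, 1031 were higher and 811 lower in conditioned young mice without overlap.

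Within each age no member passed either. In young mice, at an unadjusted p under 0.05, 7 of 51 members stood lower and 0 higher, where 0.0278% of all genes passed the adjusted test and 3.18% were lower at that unadjusted threshold. The motile median was -0.24 with 22 of 26 below 0. The young groups did not overlap, with conditioned below naive, for 3 of the 51 members, against 5.63% of all genes. In old mice 5 were lower and 0 higher, where 0.0139% of all genes passed and 3.69% were lower at the unadjusted threshold, and the motile median was -0.22 with 20 of 26 below 0. There the groups did not overlap, conditioned being the lower, for 7 members, against 6.2% of all genes. DESeq2 called 0 at either age. The interaction, old minus young in the training difference, was called for 0 members and for 0.0% of all genes in edgeR, and for 0 members by DESeq2. An unadjusted p under 0.05 was found for 1 member, on the lower side (3.6% of all genes), namely the chaperonin-like gene Bbs12 (log2 -0.64, SE 0.28, edgeR adjusted p = 0.689). The motile median of this difference was -0.03 and the general one -0.03.

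Age was compared as old against young hippocampi, averaged over both conditions with 6 libraries in each arm. Dnah2 fell, with a log2 change of -0.61 (SE 0.12, edgeR quasi-likelihood adjusted p = 0.0355) and a median of 6.06 CPM in old (4.77 to 8.33) against 9.26 CPM in young libraries (6.98 to 12.8). It was the only member called in this edgeR fit, in either direction, where 0.375% of all genes were called and 0.229% lower, and DESeq2 called Dnah9 too. The lowest young libraries lay within the range of the old ones. The call lies near its threshold: it was lost without any one of old conditioned 61, 63 or 65, old naive 67 or 69, young conditioned 73, 75 or 77, or young naive 83, with its adjusted p then between 0.058 and 0.117. Its log2 change was between -0.69 and -0.56 with each of the 12 libraries left out in turn. With the ependymal score as a covariate it was -0.55 (adjusted p = 0.0517), and without libraries 81 and 61 together -0.57 (adjusted p = 0.063), so that the call was lost in both fits. The call was kept with the choroid plexus score as a covariate (edgeR adjusted p = 0.0333) and with upper-quartile scaling (edgeR adjusted p = 0.031). Without the filter on low counts, edgeR called Dnah2 and also Dnah6 and Spag16.

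On the lower side 11 members had an unadjusted p under 0.05 in old hippocampi, and 0 on the higher, against 9.27% lower among all genes. The motile members had a median log2 change of -0.24 with 22 of 26 below 0, the general members -0.07 with 17 of 22 below 0, and all genes -0.00 with 51.1% below 0. The motile median was -0.11 with the ependymal score as a covariate, -0.14 with the choroid plexus score and -0.19 without libraries 81 and 61. The general median was between -0.08 and -0.07 in these same fits. Among conditioned mice alone, the ependymal covariate gave a motile median of 0.01, against -0.18 without the covariate, and among naive mice alone -0.13, against -0.25. How far ependymal and choroid plexus levels account for the age values was not tested.

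All 10 dynein heavy chains were below 0 in old hippocampi, with a median of -0.52 and 7 with an unadjusted p under 0.05. Dnah9 had a median of 50.7 CPM in old (40.4 to 60.0) against 60.2 CPM in young libraries (51.8 to 66.4; log2 -0.26, SE 0.07, edgeR adjusted p = 0.0965). Dnah5, an outer arm heavy chain mutated in primary ciliary dyskinesia, had a median of 14.0 CPM (12.7 to 14.8) in old against 16.4 (13.3 to 21.1) in young libraries (log2 -0.25, SE 0.09, edgeR adjusted p = 0.19). Dnah6 had a log2 change of -0.98 (SE 0.27, edgeR adjusted p = 0.101). The central apparatus gene Spag16 had 0.619, 0.611 and 1.21 CPM in old conditioned against 1.58, 3.91 and 1.92 in young conditioned libraries. In naive mice it had 2.36, 2.29 and 1.34 CPM in old against 1.27, 4.20 and 4.13 in young libraries, which overlapped (log2 over both conditions -1.15, SE 0.32, edgeR adjusted p = 0.116). Without young naive 79, the young naive library with the lowest motile score (2.60), Dnah2, Dnah6, Dnah7b and Spag16 were called. The share of all genes called for age in that fit is not given here. Spag17 (-0.19), Spag6 (-0.06), Rsph9 (-0.16) and Tekt5 (-0.10) were closer to 0, and Rsph3a (0.11), Rsph3b (0.20), Spag5 (0.04) and Spag7 (0.07) were above it.

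Among the 22 general genes, 3 were lower at an unadjusted p under 0.05 for age, where 9.27% of all genes were, each with a small difference. Ift172, an IFT-B gene, had 63.6 to 75.6 CPM in old and 76.8 to 84.9 CPM in young libraries, the only member whose 6 old and 6 young libraries did not overlap, as 0.569% of all genes did in the lower direction. Its log2 change was -0.16 (SE 0.05, edgeR adjusted p = 0.155). Ift140, of IFT-A, had a median of 32.1 CPM in old and 36.5 in young libraries (log2 -0.17, SE 0.07, edgeR adjusted p = 0.237), and Ift81, of IFT-B, 38.2 and 41.6 (log2 -0.12, SE 0.05, edgeR adjusted p = 0.276). BBS genes had a median of -0.07, with Bbs1 at -0.07 (SE 0.05) and Bbs4 at -0.03 (SE 0.07).

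In naive mice alone, 0 members were called for age by edgeR, where 0.0555% of all genes were, and 1, Dnah2, by DESeq2 (adjusted p = 0.0475). There 9 members stood lower and 0 higher at the unadjusted threshold of 0.05, against 5.28% lower among all genes. In conditioned mice alone, 0 were called by edgeR, where 0.0347% of all genes were. At that unadjusted threshold 6 stood lower and 0 higher, against 7.14% lower among all genes. DESeq2 called 0 there too, but gave an adjusted p for only 2 members, so its count does not cover the others. The training and age comparisons share libraries, so their values for a gene are not separate evidence.

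**Figure D3:**
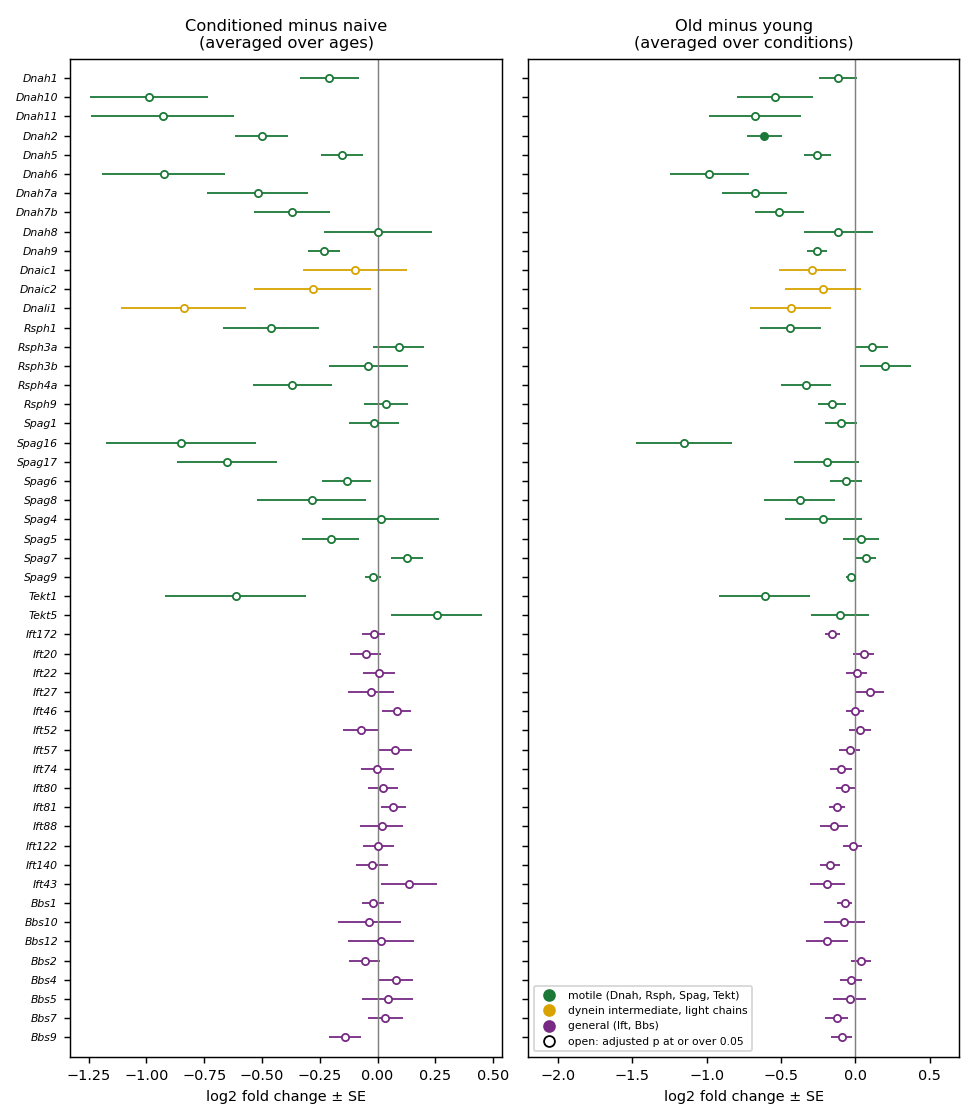
Log2 fold change ± SE of the 51 tested members for training (conditioned minus naive, left) and age (old minus young, right), from the edgeR fit, coloured by class. The filled point is Dnah2 in age at -0.61, the open points did not pass, and the Ift and Bbs points lie between -0.19 and 0.13 in both panels.

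Further cilium genes outside the symbol rule were listed by role and are given beside the members. Of 60 further axonemal and motile ciliogenesis genes, 37 were tested, and Foxj1, Ak7 and Enkur of these are also among the ependymal markers. For training their median was -0.13 with 31 of 37 below 0, 8 of them at an unadjusted p under 0.05, against 49.8% below 0 and 4.17% past that threshold among all genes. For age it was -0.28 with 34 below 0, 13 of them past that threshold, against 51.1% and 9.27%. In both, 0 were higher at that threshold and 0 passed adjustment. The 21 tested other intraflagellar transport genes had medians of 0.01 for training and -0.10 for age, the 11 other BBSome genes -0.02 and -0.08, and the 29 transition zone and ciliary signalling genes -0.04 and -0.10. No gene of these lists was called in either comparison. Dync2h1, the heavy chain of the motor that drives IFT-A trains, had the smallest p in age (log2 -0.22, SE 0.05, edgeR adjusted p = 0.0636).

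H2A.Z promoter peaks were assigned to 35 of the 58 members, 60.3% against 48.4% of all genes in the RNA files. Among genes with enough counts for the RNA test the share was 66.7% of 51 members against 75.1% of all tested genes. General members had a peak in 16 of 22 cases, motile ones in 18 of 33 and dynein chains in 1 of 3. Of the dynein heavy chains 5 of 11 had one (45.5%), against 48.4% of all genes and 75.1% of tested genes, and 10 of the 11 were tested. Dnah1, Dnah2, Dnah5, Dnah6, Dnah8 and Dnah17 had none within 1 kb. The start of another gene also lay in the peaks of Dnah9, Ift140, Rsph3a and Spag5, so those peaks cannot be given to the member alone, and the peak called Spag6 lies at the start of Spag6l. By the authors' deposited table, 16 of 16 general peaks and 12 of 14 peaks of axonemal motile members (the motile ones without Spag4, Spag5, Spag7 and Spag9) overlapped H3K4me3, the mark of active starts (93.8% of all promoter peaks). H3K27ac, a mark of active promoters and enhancers, overlapped 13 of the 16 general peaks and 4 of those 14 motile peaks, against 66.8% of all promoter peaks in the authors' deposited table. H3K27me3, the Polycomb mark, overlapped 0 of the 16 and 3 of the 14, against 34.8%. Over all 18 motile peaks, with those 4 Spag genes, the counts were 16 for H3K4me3, 8 for H3K27ac (44.4%) and 4 for H3K27me3, and all 4 Spag peaks left out overlapped H3K27ac. The sources used here do not say from which tissue or cells those mark regions came.

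**Figure D4:**
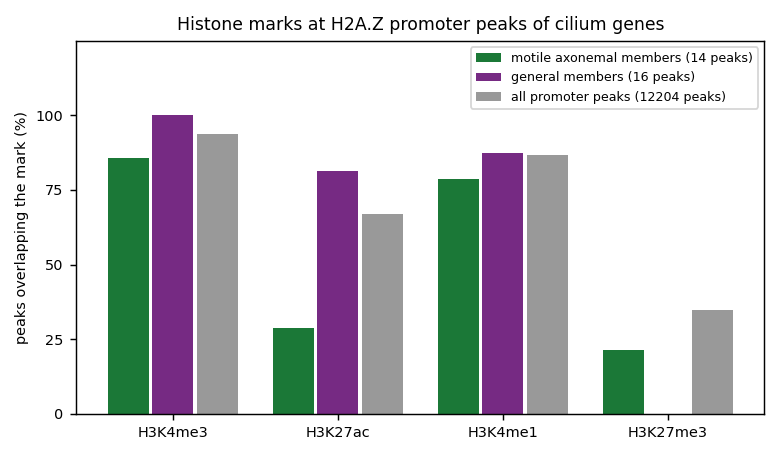
Share of H2A.Z promoter peaks that overlap each of 4 histone marks in the authors' table, for axonemal motile members (14 peaks), general members (16) and all promoter peaks (12204). The bar for H3K27ac is 28.6% in axonemal motile members (44.4% over all 18 motile peaks) and 81.2% in general members, and no general peak overlaps H3K27me3.

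H2A.Z was lower in conditioned than in naive young mice at all 35 member peaks in the authors' deposited table, as at 91.8% of all promoter peaks. The median log2 fold was -0.93 over members and -0.63 over all promoter peaks. An FDR of 0.05 or less was reached there by 9 members, which fell, 25.7% of the 35, where 14.5% of all promoter peaks did. Rsph9 fell most, at chr17:46143607-46144395 on mm10, with a log2 fold of -2.85 (authors' deposited table, FDR 9.06e-05) and a log2 level of 3.36 in young conditioned against 6.21 in young naive mice. Its peak was called in 0 of 3 young conditioned and 3 of 3 young naive libraries in the authors' deposited table. Ift27, a small GTPase of IFT-B, fell by 2.54 on the log2 scale at chr15:78173525-78174163 (authors' deposited table, FDR 0.00523), and Ift22, another GTPase of IFT-B, fell by 2.42 (FDR 0.000285). Bbs9 (-2.02), Rsph1 (-1.66), Spag1 (-1.55), Spag7 (-1.45), the IFT-B gene Ift74 (-1.43) and the BBSome gene Bbs5 (-1.21) also fell, again by the authors' deposited table. At the other end, Dnah10 had a fold of -0.02 and the BBSome gene Bbs2 one of -0.13 in the authors' deposited table.

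In old mice H2A.Z was again lower in the conditioned group at 35 of 35 member peaks of the authors' deposited table, where 98.3% of all promoter peaks were. The median log2 fold was -1.17 over members and -1.03 over all promoter peaks. Here 2 members fell at an FDR of 0.05 or less, 5.71% of them, against 15.9% of all promoter peaks. Ift46, an IFT-B core gene, fell by 2.93 on the log2 scale at chr9:44772721-44773570 (authors' deposited table, FDR 0.0239). Ift88 fell by 1.77 at chr14:57423668-57424480 (authors' deposited table, FDR 0.00454). The 9 members called in young and the 2 called in old mice had 0 genes in common, and the difference between the ages was not tested. Rsph9, called in young mice, had -2.23 in old mice with an FDR of 0.129 in the authors' deposited table. No member rose at either age, and of all promoter peaks 0.0164% rose in young and 0.0% in old mice in the authors' deposited table.

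Age gave no call at any promoter peak in the authors' deposited table, 0.0% in either direction. At an unadjusted p under 0.05 by the authors' deposited table, 1 of 35 member peaks and 2097 of all 12204 promoter peaks were higher in old naive mice. In old conditioned mice 0 member peaks and 49 of all 12204 promoter peaks were higher at that threshold. Among naive mice, H2A.Z was higher in old than in young mice at 24 of the 35 member peaks (median log2 fold 0.19), where 10.8% of all promoter peaks were lower and the median over all was 0.44. Among conditioned mice it was higher at 15 of 35 (median -0.03), with 37.9% of all promoter peaks lower and a median of 0.10. In old naive mice, 13 of the 35 member peaks were called in all 3 libraries (37.1%, against 72.0% of all promoter peaks), and in young naive mice 27 of 35 (77.1% against 65.2%), by the authors' deposited table.

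**Figure D5:**
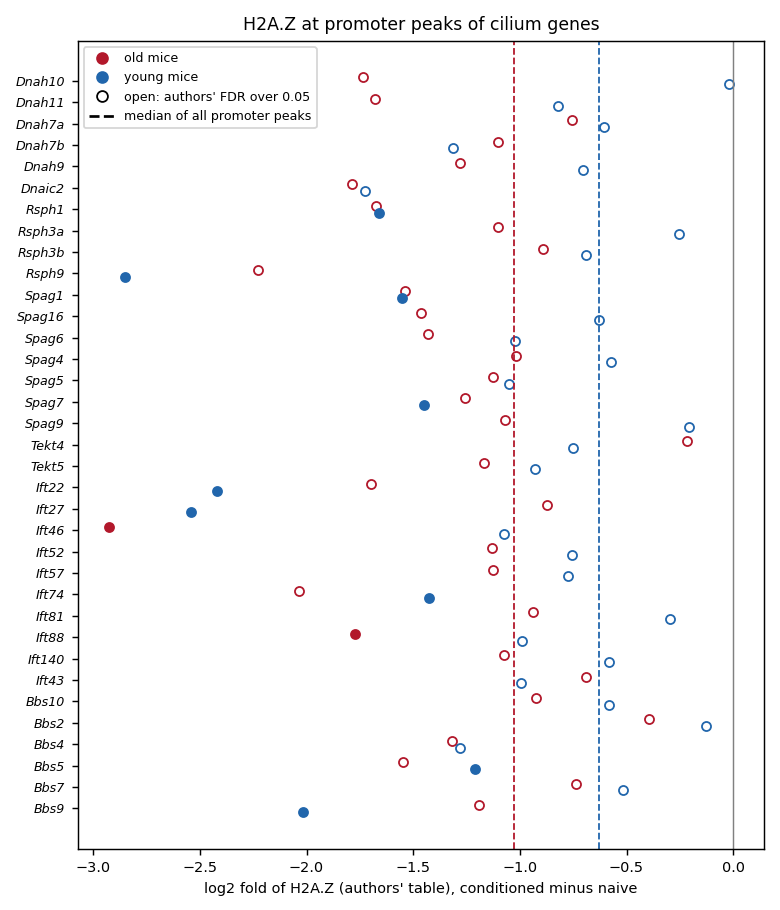
Log2 fold of H2A.Z from the authors' table, conditioned minus naive, at the 35 member promoter peaks in old (red) and young (blue) mice. All points lie below 0, filled points have an FDR of 0.05 or less, and dashed lines give the median of all promoter peaks, -1.03 in old and -0.63 in young mice.

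Promoters that lost H2A.Z by the authors' calls showed no RNA change that passed, where hardly any gene did. For training, 0.0278% of all genes passed in young and 0.0139% in old mice. The lack of a pass therefore cannot show whether RNA and H2A.Z change together. The RNA and H2A.Z libraries also carry different title numbers. For the 9 members called in young mice, the RNA log2 changes with training in young mice ran from -0.29 for Rsph1 to 0.15 for Spag7, with 6 of 9 below 0 and no edgeR adjusted p below 0.805. For Ift46 and Ift88 in old mice they were 0.07 and 0.07 (edgeR adjusted p = 0.891 and 0.932). In the other direction, Dnah10 had an H2A.Z fold of -0.02 in young mice by the authors' deposited table beside an RNA log2 change of -1.25 (SE 0.35, edgeR adjusted p = 0.730). That peak was called in only 1 of 3 young conditioned and 1 of 3 young naive libraries. In old mice its fold was -1.74 (authors' deposited table, FDR 0.213). Dnah2 and Dnah6 had no promoter peak to compare.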

How the data were processed

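The authors deposited, for each of 12 RNA libraries, raw counts of reads per gene. For H2A.Z the deposited file lists peaks on mm10, with log2 folds and log2 levels of the groups, a p-value and FDR for each fold, and other columns such as how many libraries of a group called the peak and how far genes and mark regions lie. Per the submitters' processing notes, edgeR 3.8.6, DiffBind 1.12.2, MACS2 2.0.10, HTSeq 0.6.1p2, TopHat and Bowtie2 2.2.1 were among the tools used. The sources used here do not give the strand setting, the annotation or the scaling of the folds. Without strand, reads of overlapping genes cannot be told apart.

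Counts were fitted in R 4.3.3 with edgeR 4.0.16 (TMM, filterByExpr, quasi-likelihood F test, all 4 groups in 1 fit), with Benjamini-Hochberg adjustment over 14405 genes at 0.05. SEs were derived from the F statistic. Library scores are mean log2 CPM with a prior count of 2. Scripts were tested on simulated data. Depth was 9410843 to 13350561 counts. Signs of the folds were changed so that conditioned stands over naive and old over young. In that file T was taken to mean conditioned, being the code left after N for naive. Old levels are shifted against the folds by a constant (-0.22 on the log2 scale for training in old mice), so levels are set side by side in young mice only. Overlap with a mark was read from the authors' annotation of each peak. The 12 input libraries were not used here.

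The members and lists were chosen with earlier results of these data known. Genes named are those called, the 3 highest levels and the smallest p of each role, a set of well known members, and the calls and extremes of H2A.Z. Dnah6, Dnah7a, Dnah7b, Dnah8, Dnah10, Rsph3b, Spag4, Ift43, Bbs2, Bbs12 and Dync2h1, where outside this rule, were named after their values were seen. Alternatives were DESeq2 1.42.0, other scalings and filters, marker scores as covariates, each library left out, a stricter FDR and other promoter windows. The ependymal covariate and leaving out libraries 81 and 61 together were added after the data were seen.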

Additional observations from a re-analysis of the deposited data

How the results depend on the processing

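Counts of called members depended on single libraries. With each library left out in turn, called members ranged from 0 to 1 for training in young mice, from 0 to 2 for training over both ages and from 0 to 4 for age over both conditions. DESeq2 called 2 members for age over both conditions (Dnah2 and Dnah9) and 1 for age in naive mice, no filter on low counts gave 3 (Dnah2, Dnah6 and Spag16), and the ependymal covariate and leaving out libraries 81 and 61 together each gave 0. The choroid plexus covariate gave 1 for age over both conditions (Dnah2). At an FDR of 0.01 the authors' deposited table called 5 member promoters in young and 1 in old mice, against 9 and 2. The shares of all genes and of all promoter peaks called under these alternatives are not given here. The counts of members therefore cannot be set against them. Of 1297 values of named genes that did not pass, 60 had the other sign under an alternative. Where causes of these shifts are not given by fewer libraries or genes, the cause was not tested. Members with few counts per library, such as Spag16 and Dnah10, had wide errors. No paired analysis was possible because no 2 RNA libraries share a title number and the H2A.Z table holds no values per library.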
